A study of Mus musculus with 6 samples.

Results

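Maoa, Maob, Adrb1, Gabbr1 and Chrna7 were followed in macrophages from pancreatic islets and from epididymal fat, as 5 of the 50600 genes in the count table. They were chosen by symbol, with no measured value in the rule but with earlier results of these data known. Each symbol occurs once in the table. The cells came from chow-fed, otherwise untreated C57BL/6J males aged 12 weeks, and the design text calls the samples of both tissues autologous. Macrophages were sorted by flow cytometry as viable cells with the leukocyte protein CD45 and the macrophage proteins F4/80 and CD64 on their surface. Bulk RNA of the sorted cells was sequenced from 3 islet and 3 fat libraries, numbered 2, 4 and 6 in each tissue. All groups shared the strain, sex, age and diet, and no treatment or allele separates them. The labels do not tell how many animals went into a library, so p-values measure the spread between these libraries only.

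Monoamine oxidases A and B, encoded by Maoa and Maob, sit on the outer mitochondrial membrane and oxidise amine transmitters. The A form prefers noradrenaline and serotonin. Macrophages that lie along sympathetic fibres in fat have been described as taking up noradrenaline and breaking it down. Adrb1 encodes the beta-1 adrenergic receptor, which senses noradrenaline and raises cyclic AMP. Gabbr1 encodes the ligand-binding subunit of the GABA-B receptor, whose partner Gabbr2 couples it to inhibitory G proteins, and beta cells release GABA. Chrna7 encodes the alpha-7 nicotinic acetylcholine receptor, which has been studied as a route by which nerves act on macrophages.

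Total counts ranged from 4089980 to 9235591 per library. Islet libraries 2 and 4 stood apart from islet library 6: a set of 8 heat shock genes, chosen after earlier results were known, took 9.55% and 10.4% of their counts, against 0.812% in islet library 6 and 0.260% to 0.292% in the fat libraries. The summed level of 10 macrophage markers, in CPM (reads of a gene relative to the library total) on library sizes adjusted by the trimmed mean of M-values (TMM), was 5765 to 8003 in islet and 7056 to 8780 in fat. RNA of other cell types was present too. The 10 islet endocrine markers summed to 3549 to 9662 CPM in islet and 0 to 7.03 CPM in fat, where Gcg, Sst, Ppy and Pcsk1 were at 0. The 10 adipocyte markers summed to 81.5 to 284 CPM in fat and 11.2 to 28.0 CPM in islet, where 8 of them, Adipoq and Plin1 included, were at 0. Stromal markers summed to 93.1 to 410 CPM in fat and 1.81 to 4.59 CPM in islet (5 of 8 at 0), and endothelial markers to 35.3 to 188 CPM and 7.45 to 27.8 CPM (1 of 8 at 0). The remaining lists summed in islet and in fat to 6.45 to 92.0 and 0.189 to 0.353 CPM for acinar cells, 0 to 3.77 and 4.24 to 19.9 CPM for mesothelium, and 52.4 to 80.0 and 26.3 to 37.3 CPM for Schwann cells and neurons. They summed to 0 to 1.41 and 3.88 to 5.30 CPM for mast cells and basophils, 0 to 0.806 and 7.43 to 26.7 CPM for T and NK cells, and 38.0 to 222 and 167 to 242 CPM for B cells. Neutrophil markers summed to 49.3 to 88.5 and 26.3 to 37.7 CPM, and eosinophil markers to 0.404 to 4.59 and 0.567 to 1.29 CPM. In the list for Schwann cells and neurons, which was higher in islet, Sox10 and Gfap were at 0 in all 6 libraries, while Mbp, Ngfr, Uchl1 and Snap25 had counts in islet.

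The comparison asks which of these genes differ between the macrophages of the 2 tissues. Of the 5, 4 had enough counts to be tested. Maoa and Gabbr1 were lower in islet than in fat macrophages, and Maob and Adrb1 did not pass (edgeR, quasi-likelihood F test, with p adjusted by Benjamini and Hochberg over 12152 genes and a threshold of 0.05). Chrna7 had no read in any library. Over all genes tested 10.5% were lower in islet and 8.97% higher, so 2 of 4 lower is a count to be read against that background. Every islet library lay below every fat library for 22.3% of the genes tested, and for both Maoa and Gabbr1.

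Maoa was the member with the largest difference among the 4 tested. It gave 14, 4 and 22 counts in islet libraries 2, 4 and 6 and 588, 526 and 482 counts in fat libraries 2, 4 and 6. On the CPM scale these were 2.82, 1.15 and 2.96 in islet and 55.6, 69.8 and 56.7 in fat. Every islet library lay far below every fat library, with no overlap. Means were 2.31 ± 1.01 CPM in islet and 60.7 ± 7.89 CPM in fat (SD, n = 3 each), 25.0-fold lower in islet (log2 -4.65 ± 0.38, SE, edgeR adjusted p = 1.45e-04). Within numbers 2, 4 and 6 the log2 ratio of islet to fat was -4.08, -5.42 and -4.05 with 0.5 CPM added. In these bulk samples, fewer cells that carry the transcript and less of it per cell cannot be told apart. The adipocyte markers, a possible other source of RNA in the sort, summed to 284, 247 and 81.5 CPM in fat libraries 2, 4 and 6. Maoa was at 55.6, 69.8 and 56.7 CPM in the same libraries, and the part of adipocyte RNA in the result was not tested. The call held in all 13 alternative fits, with log2 differences from -4.85 to -4.38.

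**Figure D1:**
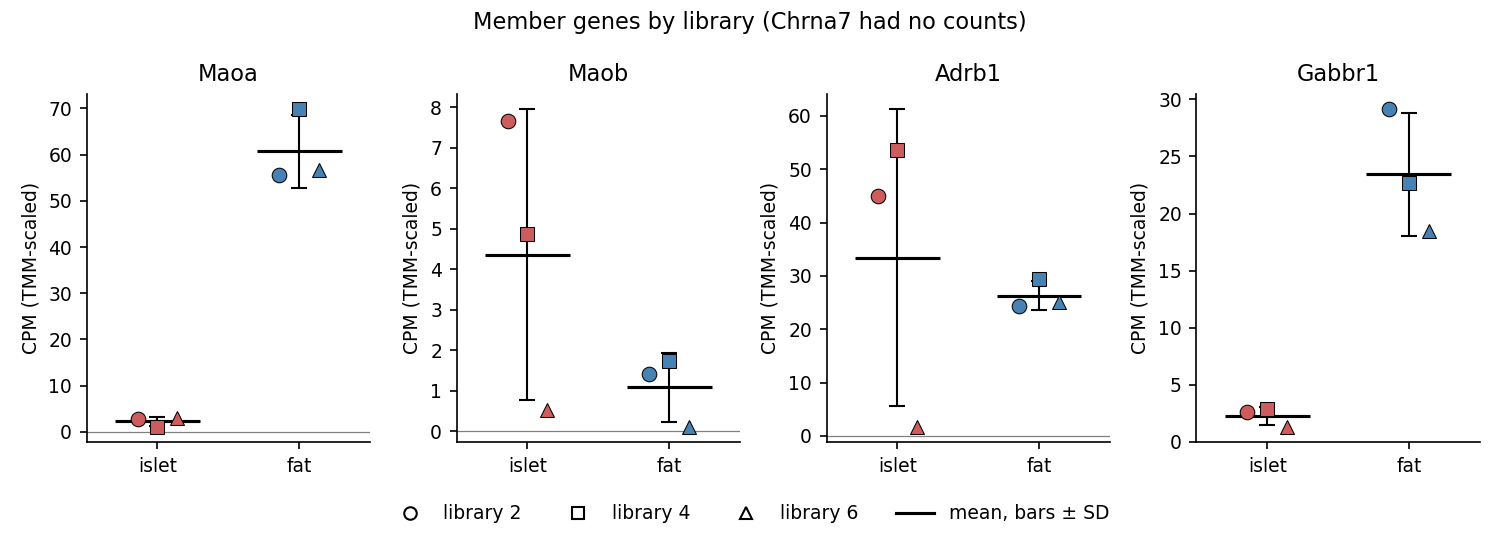
CPM (y axis, TMM-scaled, a separate scale per panel) of Maoa, Maob, Adrb1 and Gabbr1 in islet and fat macrophages (x axis), with 1 point per library, the mean as a line and the SD as bars (n = 3). Maoa and Gabbr1 do not overlap between tissues, while islet library 6 falls away from islet libraries 2 and 4 for Maob and Adrb1.

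Maoa (ENSMUSG00000025037.6) lies on chromosome X of GRCm38, 16619698 to 16687818 on the plus strand, with 15 exon blocks in GENCODE M21. Maob (ENSMUSG00000040147.14) is its neighbour, 16709282 to 16817366 on the minus strand, so the genes point at each other across 21463 bases. No exon of any of the 5 genes overlaps another gene in that annotation. The stretches before the transcription start of Maoa and Gabbr1, the members that were lower in islet, are shown as examples. They are the last 250 bases before the start in RefSeq (GRCm38.p6), where 4 of the 5 members had an entry. The Maoa stretch is chrX:16619448-16619697 and the Gabbr1 stretch chr17:37045716-37045965, both on the plus strand. Capitals mark matches, on either strand, to GGGCGG (the core of a GC box, bound by Sp1 and Krüppel-like factors) and TGACG (part of the cyclic AMP response element).
Maoa: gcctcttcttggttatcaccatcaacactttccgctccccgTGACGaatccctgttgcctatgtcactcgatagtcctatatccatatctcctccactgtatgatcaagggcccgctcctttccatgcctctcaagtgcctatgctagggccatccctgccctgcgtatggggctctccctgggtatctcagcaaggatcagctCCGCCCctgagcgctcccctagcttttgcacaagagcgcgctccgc
Gabbr1: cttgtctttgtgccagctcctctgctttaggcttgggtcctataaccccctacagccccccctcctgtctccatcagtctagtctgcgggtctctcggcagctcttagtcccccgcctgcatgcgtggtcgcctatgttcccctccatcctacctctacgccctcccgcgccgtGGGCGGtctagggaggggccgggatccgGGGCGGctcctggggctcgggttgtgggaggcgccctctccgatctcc
The Maoa stretch held 1 GC box core, 46 bases before the start, and 1 TGACG, 209 bases before it. The Gabbr1 stretch held 2 GC box cores, 76 and 48 bases before the start, and no TGACG. Another motif, GAGGAA, a purine-rich sequence of the kind bound by PU.1, was found in neither. The members that were not lower held them too: Adrb1 had 1 GGGCGG and 1 TGACG, and Chrna7 1 GGGCGG. No match overlapped a match to another motif. Of 32851 stretches of the same length, 32.7% held GGGCGG, 17.8% TGACG and 23.3% GAGGAA, and a match describes the sequence only.

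Maob, the second oxidase, was scarce in both tissues. It gave 38, 17 and 4 counts in islet libraries 2, 4 and 6 and 15, 13 and 1 counts in fat libraries 2, 4 and 6. These were 7.66, 4.87 and 0.539 CPM in islet and 1.42, 1.72 and 0.118 CPM in fat. Islet libraries 2 and 4 were above every fat library, and islet library 6 lay within the fat range. The log2 difference was 1.97 ± 1.15 (SE, 95% interval -0.63 to 4.58), with an edgeR adjusted p = 0.277. Within each number islet exceeded fat, by 2.09, 1.27 and 0.75 on the log2 scale with 0.5 CPM added. In islet the order of the libraries matched that of the endocrine markers, which summed to 9662, 6310 and 3549 CPM in libraries 2, 4 and 6. Heat shock RNA, which was also lowest in islet library 6, took 9.55%, 10.4% and 0.812% of counts in the same libraries. The part of endocrine or heat shock RNA in the result was not tested. With islet libraries 2 and 4 left out, a choice made after the data were seen, islet library 6 alone stood against 3 fat libraries. The difference of Maob was then -1.05, with no islet replicate behind it and the spread taken from fat alone.

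The counts of the 2 oxidases were also set against each other within each library. Maob made up 73.1% (exact Clopper-Pearson 95% interval 59.0 to 84.4), 81.0% (58.1 to 94.6) and 15.4% (4.36 to 34.9) of the Maoa plus Maob counts in islet libraries 2, 4 and 6. In fat libraries 2, 4 and 6 it made up 2.49% (1.40 to 4.07), 2.41% (1.29 to 4.09) and 0.207% (0.00524 to 1.15). All islet shares were above all fat shares, but islet library 6 was far from the other islet libraries and its interval covers shares close to those of fat. An exact two-sided permutation test of the shares gave p = 0.1, the smallest that 3 against 3 allows. These intervals cover counting error only, since reads are not independent molecules, and the islet shares rest on 52, 21 and 26 counts. Summed over both genes, oxidase RNA was 6.67 ± 3.53 CPM in islet and 61.8 ± 8.43 CPM in fat (SD, n = 3, exact permutation p = 0.1).

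**Figure D2:**
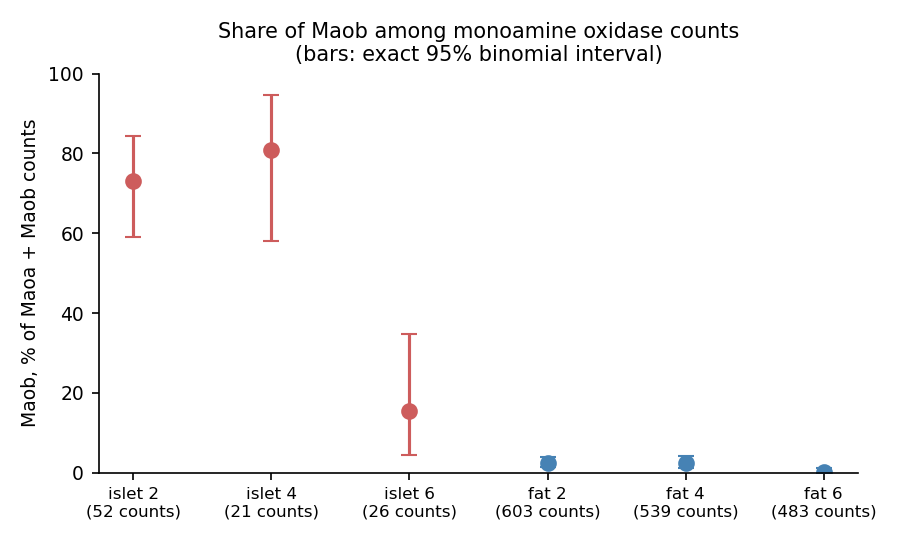
Share of Maob in the counts of Maoa plus Maob (y axis, percent) in each library (x axis, with the summed counts of both genes), with exact 95% binomial intervals as bars. The fat libraries sit between 0.207% and 2.49%, islet libraries 2 and 4 at 73.1% and 81.0%, and islet library 6 at 15.4%.

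Of 32 genes written as a list for the making, transport and breakdown of monoamines, 15 were tested. Of these 4 fell in islet (26.7%), 1 rose (6.67%) and 10 did not pass, beside 10.5% and 8.97% of all genes tested. The median log2 difference of the list was -0.46, against 0.0061 over all genes tested. Besides Maoa, those that fell were Aldh2 and Sult1a1, which act on aldehyde and phenolic products of amines, and Aoc3, a surface amine oxidase known from fat and vessels. Aldh2, which removes the aldehyde that monoamine oxidase makes, had a mean of 130 ± 23.6 CPM in islet against 252 ± 46.9 CPM in fat (SD, n = 3, 1.94-fold lower, edgeR adjusted p = 0.0311). Sult1a1, a sulfotransferase, averaged 26.1 ± 18.5 and 132 ± 11.5 CPM (5.09-fold lower, edgeR adjusted p = 0.0296). Aoc3 gave no islet count and 122, 58 and 12 counts in fat libraries 2, 4 and 6, at least 11-fold lower against a floor of 3 counts per library. Its fat order matched that of the adipocyte, stromal and endothelial sums, whose part was not tested. The gene that rose was Ddc, aromatic amino acid decarboxylase, with 19, 7 and 25 counts in islet and none in fat, at least 8.90-fold higher. Ddc is also a gene of islet endocrine cells, whose markers summed to 9662, 6310 and 3549 CPM in islet libraries 2, 4 and 6. Ddc was at 3.83, 2.01 and 3.37 CPM there, in another order, and the part of endocrine cells was not tested.

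Genes for the transport and synthesis of noradrenaline were thinly covered. Of 7 plasma membrane monoamine transporter genes, 4 had no counts and none was tested. Slc6a2, the noradrenaline transporter described in nerve-associated macrophages and named here after its values were seen, gave 6 counts in fat library 6 and none elsewhere. Th, the first enzyme of catecholamine synthesis, gave 3 counts in islet library 2 alone, and Dbh, which makes noradrenaline, none.

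Calls in the monoamine list other than Maoa did not hold in every alternative fit. Over all genes, calls were also fewer without 1 fat library. There 494 to 573 genes were higher and 595 to 774 lower, against 1090 and 1271 in the main fit. Without any 1 fat library or without islet replicate 2, Aldh2 and Sult1a1 missed the threshold (edgeR adjusted p from 0.0787 to 0.141 and from 0.0651 to 0.0908). Their log2 differences there were -1.06 to -0.80 and -2.68 to -2.31, beside -0.96 and -2.35 in the main fit. Aoc3 missed the threshold without fat replicate 2 or 4 (0.0719 and 0.0556), and Ddc without fat replicate 2 (0.0526) and in the paired fit, with replicate as a block (0.0590). The list then held 2 lower genes when islet replicate 2 was left out, 1, 1 and 2 without fat replicates 2, 4 and 6, and 7 with islet library 6 alone against fat, an arm with no replicate. It held 0 higher genes without fat replicate 2 or with the block and 2 without islet replicate 6.

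Adrb1 split the islet libraries. It gave 223, 187 and 13 counts in islet libraries 2, 4 and 6 and 257, 222 and 214 counts in fat libraries 2, 4 and 6. These were 45.0, 53.6 and 1.75 CPM in islet and 24.3, 29.5 and 25.2 CPM in fat. Islet libraries 2 and 4 lay above all fat libraries, at 1.87 times the fat mean, and islet library 6 lay below them all, with the fat mean 15.0 times its level. The fat libraries were close together (26.3 ± 2.76 CPM, SD, n = 3), while islet averaged 33.4 ± 27.8 CPM. The log2 difference was 0.33 ± 0.84 (SE, 95% interval -1.57 to 2.23), with an edgeR adjusted p = 0.824, so no tissue difference was shown and the interval is wide. Without islet replicate 6 Adrb1 was higher in islet (log2 0.90, edgeR adjusted p = 0.0193). Islet library 6 alone differed from the 3 fat libraries by -3.96 on the log2 scale, a value with no islet replicate behind it. Its sign also turned in the paired fit (-0.32), in limma voom (-1.14) and without islet replicate 4 (-0.19), none of them past the threshold.

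The islet libraries with much Adrb1 were those with much heat shock RNA: 9.55% and 10.4% of counts in islet libraries 2 and 4 and 0.812% in islet library 6. The fat libraries held 0.260% to 0.292% heat shock RNA and 24.3 to 29.5 CPM of Adrb1. The part of heat shock, or of whatever sets these libraries apart, in the Adrb1 level was not tested.

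**Figure D3:**
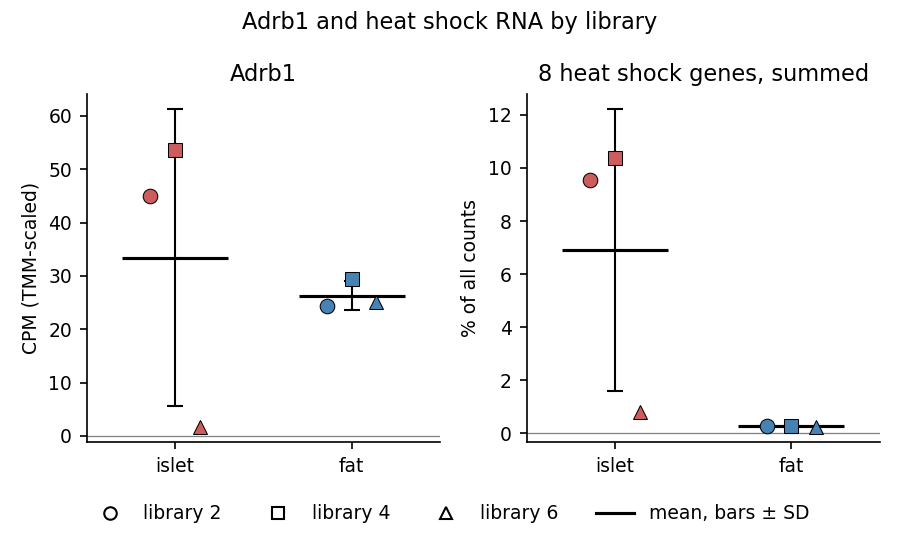
CPM of Adrb1 and the share of all counts from 8 heat shock genes (y axes) in islet and fat macrophages (x axes), with 1 point per library, the mean as a line and the SD as bars (n = 3). Islet library 6, at 1.75 CPM of Adrb1, is the lowest of all libraries and carries less heat shock RNA than islet libraries 2 and 4.

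Adrb1 (chromosome 19, 56722199 to 56733113 on the plus strand) carries another version number in the counted table (ENSMUSG00000035283.4) than in GENCODE M21, so its exon length there may not be the one used for counting. Among the other adrenoceptor genes Adra2a, an inhibitory alpha-2 receptor, gave 32, 24 and 10 counts in islet and 12, 1 and 10 in fat and did not pass (log2 2.53, edgeR adjusted p = 0.115), though it did in DESeq2 (0.0450) and without islet replicate 6 (0.0277). Adrb3, the receptor of adipocytes, gave 7, 3 and 3 counts in fat and none in islet, and Adra2c had no count.

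Downstream of the receptors, a list of 44 adrenoceptor and cyclic AMP genes had 33 tested, with a median log2 difference of -0.53. Of these 7 fell in islet (21.2%), 4 rose (12.1%) and 22 did not pass, beside 10.5% and 8.97% of all genes tested. Genes that fell included Grk5, a kinase that switches off activated receptors, and Adcy9 and Adcy6, adenylate cyclases that make cyclic AMP. Grk5 had means of 4.89 ± 1.91 CPM in islet against 54.5 ± 5.29 CPM in fat (11.1-fold lower, edgeR adjusted p = 3.08e-04). Adcy9 averaged 19.2 ± 4.40 and 76.4 ± 2.84 CPM (3.99-fold lower, edgeR adjusted p = 0.00119), and Adcy6 1.64 ± 0.323 and 10.0 ± 4.62 CPM (6.04-fold lower, edgeR adjusted p = 0.0142). Prkar2b, a regulatory subunit of protein kinase A, was 3.32-fold lower (13.9 ± 4.71 against 46.7 ± 6.00 CPM, edgeR adjusted p = 0.00654). Gnas, the stimulatory G protein, was 2.52-fold higher (515 ± 142 against 204 ± 26.6 CPM, edgeR adjusted p = 0.0130). Another regulatory subunit, Prkar1b, was 8.59-fold higher (11.1 ± 6.30 against 1.27 ± 0.491 CPM, edgeR adjusted p = 0.0130). Grk3, a receptor kinase, was 3.03-fold higher and Rapgef4, a cyclic AMP sensor also known from beta cells, 24.6-fold higher on 75 islet and 5 fat counts (edgeR adjusted p = 0.0218 and 0.0147). Endocrine markers were high in the same islet libraries, at 9662, 6310 and 3549 CPM in libraries 2, 4 and 6. In those libraries Gnas was at 529, 649 and 367 CPM and Prkar1b at 16.1, 4.01 and 13.1 CPM. Grk3 was at 69.5, 93.5 and 182 CPM, the reverse of the endocrine order, and Rapgef4 at 5.04, 5.16 and 4.31 CPM. None of these orders matched that of the endocrine sums. The part of endocrine RNA in Gnas, Prkar1b, Grk3 and Rapgef4 was not tested.

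Grk5, Adcy9 and Prkar2b passed in all 13 alternative fits. Leaving out fat replicate 2 or 4 put Adcy6 (edgeR adjusted p = 0.118 and 0.0582) and Gnas (0.0850 and 0.0777) over 0.05, as did fat replicate 4 or 6 for Prkar1b and Grk3 (0.0656 and 0.0595, and 0.107 and 0.0962) and fat replicate 4 for Rapgef4 (0.0850). Those that rose numbered 0 and 2 without fat replicates 4 and 6 and 7 without islet replicate 6 or in DESeq2. Those that fell numbered 4 without islet replicate 2, 3, 3 and 4 without fat replicates 2, 4 and 6, 11 without islet replicate 6, and 15 with islet library 6 alone against fat, an arm with no replicate. Exons of Gnas overlap Nespas and Gm20721 on the opposite strand over 8.83% and 13.1% of their length.

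Gabbr1 was lower in islet macrophages. It gave 13, 10 and 10 counts in islet libraries 2, 4 and 6 and 308, 171 and 157 counts in fat libraries 2, 4 and 6. These were 2.62, 2.87 and 1.35 CPM in islet and 29.1, 22.7 and 18.5 CPM in fat. The tissues did not overlap, and the islet libraries stayed together although they split for Adrb1. Means were 2.28 ± 0.816 and 23.4 ± 5.37 CPM (SD, n = 3), 10.5-fold lower in islet (log2 -3.39 ± 0.44, SE, edgeR adjusted p = 0.00124). The log2 ratio was -3.25, -2.78 and -3.36 within numbers 2, 4 and 6, and the call held in all 13 alternative fits. In fat, Gabbr1 stood in the order of the adipocyte sums (284, 247 and 81.5 CPM) and the stromal sums (410, 327 and 93.1 CPM), and their part in the result was not tested. Gabbr1 (ENSMUSG00000024462.17) lies on chromosome 17, 37045966 to 37075067 on the plus strand.

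Its partner Gabbr2 went the other way. Gabbr2 gave 24.2, 23.5 and 20.1 CPM in islet libraries 2, 4 and 6 and 4.63, 1.86 and 3.53 CPM in fat libraries 2, 4 and 6. Every islet library was above every fat library, and the difference was 6.68-fold (log2 2.74 ± 0.43, SE, edgeR adjusted p = 0.00282), past the threshold in all 13 alternative fits. Gabbr2 made up 90.2% (exact Clopper-Pearson 95% interval 83.9 to 94.7), 89.1% (80.9 to 94.7) and 93.7% (88.7 to 96.9) of the counts of both subunits in islet libraries 2, 4 and 6. In fat libraries 2, 4 and 6 it made up 13.7% (10.3 to 17.7), 7.57% (4.20 to 12.4) and 16.0% (11.1 to 22.1). Shares averaged 91.0% ± 2.39 and 12.4% ± 4.38 (SD, n = 3), and an exact two-sided permutation test gave p = 0.1, the smallest possible. Per kilobase of exon the share was 90.5% to 94.5% in islet and 8.68% to 18.2% in fat. Gabbr2 followed the order of the endocrine sums in islet (9662, 6310 and 3549 CPM), and the part of endocrine RNA was not tested.

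**Figure D4:**
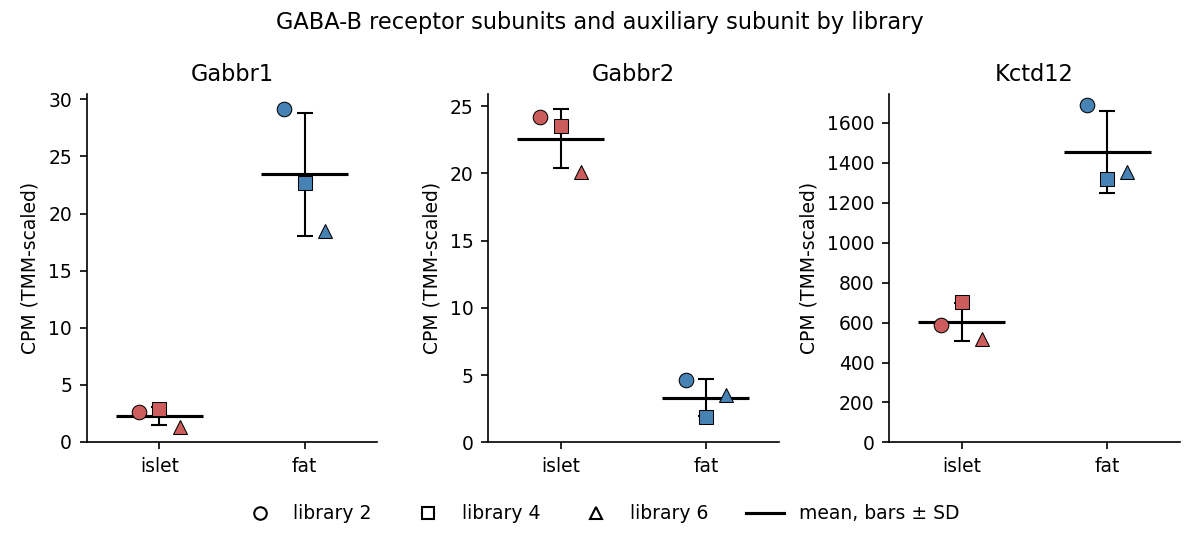
CPM (y axis, a separate scale per panel) of Gabbr1, Gabbr2 and Kctd12 in islet and fat macrophages (x axis), with 1 point per library, the mean as a line and the SD as bars (n = 3). Gabbr1 and Kctd12 are lower in every islet library than in any fat library, and Gabbr2 is higher in every islet library.

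Of 34 GABA genes 7 were tested, of which 3 fell in islet, 2 rose and 2 did not pass (median log2 difference -0.64). These shares, 42.9% lower and 28.6% higher, stand beside 10.5% and 8.97% of all genes tested. Kctd12, an auxiliary subunit that shapes GABA-B signalling, fell beside Gabbr1 and Gabra3. Its mean was 603 ± 94.5 CPM in islet against 1452 ± 204 CPM in fat (2.41-fold lower, edgeR adjusted p = 0.0142), but 62.8% of its exonic length overlaps Gm26778 on the opposite strand. Gabra3, a GABA-A channel subunit, gave no islet count and 15, 21 and 19 counts in fat, at least 3.45-fold lower. Of 19 GABA-A subunit genes 11 had no counts. For Kctd12 the edgeR adjusted p was 0.0532 without islet replicate 2, and 0.0820, 0.0503 and 0.0528 without fat replicates 2, 4 and 6 in turn. Gabra3 missed the threshold without any 1 fat library and with the block (edgeR adjusted p from 0.0880 to 0.116). The list then held 1 lower gene without 1 fat library, and 1 higher gene there, with no filter or with the block.

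Chrna7 (ENSMUSG00000030525.8, chromosome 7, 63098692 to 63212569 on the minus strand) had 0 counts in all 6 libraries. A count of 0 allows up to 3 counts per library, which is 0.433 to 0.7335 CPM of the unscaled totals in islet and 0.325 to 0.403 CPM in fat. No fold or test was made, and a level under these limits was not detectable at this depth. Chrna7 was not alone: of 16 nicotinic subunit genes 8 had no counts and 4 others had fewer than 10 in all. The tested subunit was Chrna5, an accessory subunit, with no islet count and 23, 20 and 35 counts in fat, at least 4.79-fold lower (edgeR adjusted p = 0.0163). It missed the threshold without any 1 fat library (0.0676 to 0.0756) and with the block (0.0726), which left no gene of the list lower.

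The acetylcholine list had 4 of 33 genes tested, of which Chrna5 fell, Slc44a2 rose and 2 did not pass (median log2 difference -0.07). That is 25% in each direction, beside 10.5% lower and 8.97% higher over all genes tested. Slc44a2, a choline transporter, had means of 36.7 ± 14.1 CPM in islet against 7.52 ± 1.61 CPM in fat (4.84-fold higher, edgeR adjusted p = 0.00395) and passed in all 13 alternative fits. Ric3, a chaperone that nicotinic receptors including alpha-7 need for assembly, was present at 12, 13 and 19 counts in islet and 13, 33 and 28 in fat (edgeR adjusted p = 0.980). None of the 5 muscarinic receptor genes was tested, and 3 had no counts. Among 53 receptor genes for dopamine, serotonin, histamine, glutamate and glycine 2 were tested. Of these Hrh1, a histamine receptor, fell (50%, beside 10.5% of all genes tested). Its mean was 5.96 ± 1.48 CPM in islet against 33.3 ± 6.24 CPM in fat (5.50-fold lower, edgeR adjusted p = 0.00161), and it passed in all 13 alternative fits.

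Over the 5 lists 61 of 196 genes were tested, of which 16 (26.2%) fell and 8 (13.1%) rose in islet, beside 10.5% and 8.97% of all genes tested. The median log2 difference was -0.46. The lists were written with earlier results of these data known, so these shares describe the lists and were not tested.

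**Figure D5:**
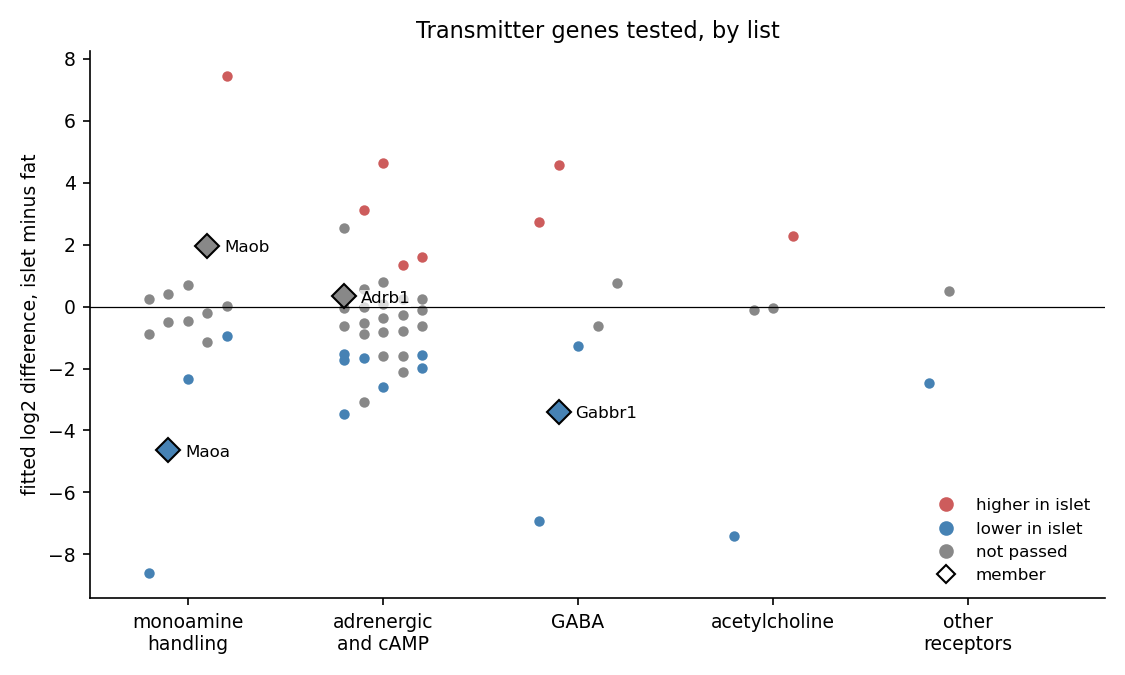
Fitted log2 difference, islet minus fat (y axis), of the 61 tested genes in 5 transmitter lists (x axis), with 1 point per gene, coloured by the edgeR call, and the 4 tested members as diamonds. Maoa and Gabbr1 lie at -4.65 and -3.39, Maob and Adrb1 are grey, and the fitted values of the 4 genes with no counts in a tissue (Ddc, Aoc3, Gabra3, Chrna5) depend on the prior count.

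Levels of different genes were compared as CPM per kilobase of merged exon length in GENCODE M21. In fat the order was Maoa at 14.6 ± 1.89, Adrb1 at 7.78 ± 0.816, Gabbr1 at 3.02 ± 0.691, Maob at 0.390 ± 0.306 CPM per kilobase (SD, n = 3) and Chrna7 at 0, and neighbours did not overlap between libraries. In islet it was Adrb1 at 9.89 ± 8.21, Maob at 1.56 ± 1.29, Maoa at 0.555 ± 0.243 and Gabbr1 at 0.293 ± 0.105 CPM per kilobase, and each pair of neighbours overlapped. By this measure 85.7% of 15485 protein-coding genes with counts lay below Maoa in fat and 34.6% in islet. For Gabbr1 these shares were 56.1% and 29.4%.

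The genes with the most similar profiles were taken as those with the smallest root mean square difference of centred log2 CPM over the 6 libraries, among 8193 genes. For Maoa they were Wwp1, a ubiquitin ligase, Susd1 and Pigz (0.27, 0.29 and 0.32 log2 units). Wwp1 was at 41.7, 28.7 and 34.8 CPM in islet and 859, 916 and 838 CPM in fat. For Gabbr1 they were Rnf150, the sialyltransferase gene St6gal1 and the phosphatase gene Dusp1 (0.25, 0.25 and 0.29). For Adrb1 they were Klhl13, the phosphatase gene Dusp8 and Klhl36 (0.23, 0.25 and 0.36), which share its low value in islet library 6: Dusp8 was at 46.6, 43.3 and 2.29 CPM in islet and 28.4, 24.4 and 21.4 CPM in fat. For Maob they were Lilra5, Magi3 and Fam149a, and less alike (0.63, 0.66 and 0.67). With 6 libraries in 2 tissues, such likeness mostly restates the tissue difference and the split of the islet libraries.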

How the data were processed

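RNA from sorted islet and fat macrophages (10 ng of total RNA per library, per the labels' protocols) was sequenced as stranded total RNA in 6 libraries. The deposited values are raw counts per gene, not normalised by the authors; the submitters' processing notes name STAR, featureCounts, Subread 1.6.4 and GRCm38. For annotation and strand setting, the sources used here give nothing. The members and lists were chosen with earlier results of these data known.

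The tests used edgeR 4.0.16 (R 4.3.3): filterByExpr by tissue, TMM, and a robust quasi-likelihood fit of islet minus fat with no covariate, Benjamini-Hochberg adjustment over 12152 genes. Standard errors are the log2 difference over the root of F. Alternatives used RLE factors, DESeq2 1.42.0, limma 3.58.1 voom, other filters, the replicate number as a block and omitted libraries. The tissues share replicate numbers, and the design text calls the samples autologous. Neither states a block, so the main fit had none and the block was used as an alternative. Deviations from tissue means correlated at 0.046, 0.063 and -0.0076 across genes for the same numbers. In simulated data, 46% of 4-fold and 2% of 2-fold changes were recovered (100 genes each of 12152).

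Named genes were the members, up to 4 genes per list and direction with the smallest adjusted p, and the 3 most similar profiles per member (average log2 CPM of at least 3, prior count 2, no cell markers or predicted genes); some genes are not reported here. Slc6a2, Th, Dbh, Adra2a, Adrb3, Adra2c, Ric3, Chrm3 and Chrm4 were named after their values were seen. GENCODE M21 matched 50376 of 50600 identifiers without version (99.6%).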

Additional observations from a re-analysis of the deposited data

How the results depend on the processing

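Of 223 values recomputed under an alternative, 173 kept their direction, call or size, 44 counts moved by over 1.5 times, 5 differences changed sign and 1 passed newly with its sign kept. Where islet libraries 2 and 4 were left out, islet library 6 alone stood against 3 fat libraries, the spread came from fat alone, and these values have no islet replicate. Maoa and Gabbr1 kept direction and call in all 13 alternatives each, including the fit with the replicate number as a block (log2 -4.67 and -3.40). The log2 difference of Adrb1 was -1.14 in limma voom, -0.32 with the replicate block, -3.96 without islet libraries 2 and 4, and between -0.19 and 0.90 when single libraries were left out. That of Maob was -1.05 without islet libraries 2 and 4 and 1.24 to 2.52 without single libraries, and it had no value under the filter of 1 CPM. Genes called higher and lower in all were 494 to 1594 and 595 to 1887 without single libraries, and 1954 and 2759 without islet libraries 2 and 4. With no filter, 2 acetylcholine genes were higher, 2 lower and 1 GABA gene higher. The replicate block gave 0 acetylcholine genes lower, 1 GABA gene higher and 0 monoamine genes higher, and no other of these calls changed with it by over 1.5 times. DESeq2 gave 7 adrenergic and 2 monoamine genes higher, the 1 CPM filter 2 other receptors lower, and leaving out islet libraries 2 and 4 gave 15 adrenergic genes lower, 7 monoamine genes lower and 2 higher. Leaving out single libraries gave 0 to 2 acetylcholine genes lower, 0 to 7 adrenergic genes higher and 3 to 11 lower, 1 to 2 GABA genes higher and 1 to 4 lower, and 0 to 2 monoamine genes higher and 1 to 4 lower. The causes were not tested. The median log2 difference of all genes was between -0.30 (no filter) and 0.0067 over the alternatives. Mean CPM of the members moved by less than the SD with RLE factors or total counts alone. Depth limits Maob, Chrna7 and most receptor genes.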
